A study of Rangifer tarandus with 4 samples.

Results

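The genes described are 7 genes of MHC class I antigen presentation, out of 21880 genes in an annotation of cattle (Bos taurus), each found by its exact symbol and each matching 1 gene. BOLA, BOLA-NC1 and JSP.1 are class I heavy chains. B2M, TAP1, PSMB9 and NLRC5 serve the same pathway and are grouped below as the loading machinery, although B2M is the light chain of the class I molecule itself and NLRC5 a regulator. All 7 were filed as protein-coding.

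The annotation, on the assembly ARS-UCD1.2, was deposited with a study of mononuclear blood cells of reindeer (Rangifer tarandus), taken 3 days after a wound. Single-cell libraries that read the 3′ end of transcripts were made from 2 blood samples of the distal antler velvet, called antler, and 2 of the saphenous vein, called back, with about 12000 cells loaded for each. The labels give no genotype, strain, treatment beyond the wound or age, and the 2 codes in the titles, each seen once per site, are not explained. The cell-by-gene values were not analysed here, so levels, depth and the comparison of antler with back are absent from what follows.

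Class I molecules carry short peptides from inside the cell to its surface, where CD8 T cells read them, while NK cells sense the class I molecule itself. The immunoproteasome cuts proteins into peptides, the TAP transporter moves these into the endoplasmic reticulum, and there they are loaded onto a heavy chain paired with beta-2 microglobulin. Nearly all nucleated blood cells carry class I molecules, and NLRC5 is the transactivator of the genes of this pathway.

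The 5 members on chromosome 23 lay in 2 places. TAP1, a subunit of the peptide transporter (ENSBTAG00000008953), ran from 7177583 to 7186556 on the minus strand, and PSMB9, a catalytic subunit of the immunoproteasome (ENSBTAG00000008954), from 7186813 to 7193342 on the plus strand. The 3 heavy chains lay 21355438 bases beyond PSMB9, with 365 annotated genes in between. In ruminants the class II region is known to be split, and the transporter and proteasome genes lie with the piece far from class I. B2M (ENSBTAG00000012330) lay on chromosome 10 from 103116503 to 103123174, and NLRC5 (ENSBTAG00000005413) on chromosome 18 from 25044850 to 25102326, both on the plus strand.

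All 3 heavy chains were read from the minus strand. BOLA-NC1, a non-classical heavy chain (ENSBTAG00000019386), ran from 28548781 to 28553089, JSP.1 (ENSBTAG00000020116) from 28663713 to 28667379, and BOLA (ENSBTAG00000002069) from 28720501 to 28724399. BOLA-NC1 and JSP.1 stood 110623 bases apart with no annotated gene between them. JSP.1 and BOLA stood 53121 bases apart with 1 gene without a symbol between them, ENSBTAG00000037421. The nearest gene beyond BOLA was TRIM26, 53370 bases away on the plus strand, and the nearest beyond BOLA-NC1 was ENSBTAG00000005146, 20797 bases away on the minus strand. The block therefore held 4 gene models, all on the minus strand, and the heavy chains spanned 3667 bases in JSP.1, 3899 in BOLA and 4309 in BOLA-NC1.

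TAP1 and PSMB9 faced away from each other with 256 bases between their gene models. The gap belongs to the transcript TAP1-201, and from TAP1-202, which starts further in, it was 557 bases to the start of PSMB9. Of 5331 pairs of adjacent divergent protein-coding genes, 10.6% lay under 1000 bases apart without overlap, and 6.17% lay closer than TAP1 and PSMB9. In human this pair is known to be driven from a shared bidirectional promoter. On its other side TAP1 was followed after 1172 bases by PSMB8, another immunoproteasome subunit on the same strand, and PSMB9 was followed after 17212 bases by H2B. Of the members outside chromosome 23, B2M had as its nearest gene ENSBTAG00000048782 at 12733 bases, with ENSBTAG00000007516 at 29978 bases on the other side, and NLRC5 lay 67051 bases from HERPUD1 and 31706 bases from CPNE2.

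**Figure D1:**
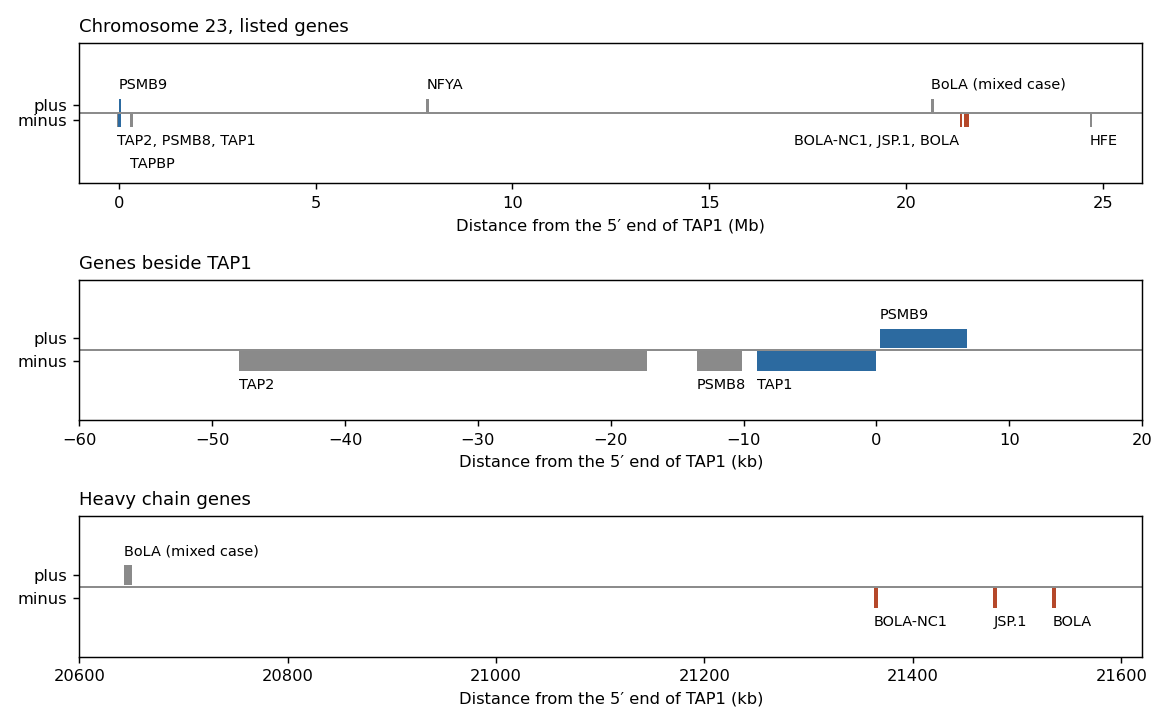
Distance of genes from the 5′ end of TAP1 along chromosome 23, in Mb (top) and kb (middle and bottom), with plus-strand genes above the line and minus-strand genes below; red bars are heavy chains, blue bars TAP1 and PSMB9, and grey bars other genes of class I antigen presentation or the gene spelled BoLA. TAP1 and PSMB9 sit side by side on opposite strands, and the 3 heavy chains sit about 21.4 Mb away on 1 strand.

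None of the 7 members had exon bases in common with a neighbour, on its own strand or on either strand. The background was 1.75% of 21861 protein-coding genes on the same strand and 8.11% on either strand, and most genes, like the 7, shared none. TAP1 and PSMB9, although the closest pair, did not overlap.

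The heavy chains were built on a common exon plan. In classical class I genes a first exon codes for the signal peptide, the next exons for the alpha 1, alpha 2 and alpha 3 domains one by one, then 1 exon for the membrane span and short ones for the tail. BoLA-201, the transcript of BOLA with 8 exons (transcripts of BOLA carry the spelling BoLA in their names), had coding segments of 64, 270, 276, 276, 105, 33, 48 and 2 bases. JSP.1-202 also had 8, with 73, 270, 276, 276, 108, 33, 48 and 2 bases. Both transcripts thus shared the lengths of all segments except the first and the fifth, and both placed only 2 coding bases in the last exon before the stop codon.

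BOLA-NC1 kept the first internal segments but not the alpha 3 length. In BOLA-NC1-202 the segments measured 64, 270, 276, 288, 80 and 123 bases, so the segment in the place of alpha 3 was 288 bases long where BOLA and JSP.1 had 276. The 288-base segment stood in all 3 BOLA-NC1 transcripts. Every transcript of BOLA and JSP.1 held the run of 270, 276 and 276 bases.

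Most introns of the heavy chains were also close in length. Between the first and second exon lay 313 bases in BOLA, 313 in JSP.1 and 312 in BOLA-NC1-201. Intron 2 measured 197, 196 and 198 bases in the same order. Intron 3 differed more, with 1023 bases in BOLA, 886 in JSP.1 and 902 in BOLA-NC1. Intron 4 measured 116, 117 and 106 bases. In the transcripts with 8 exons intron 5 was 427 bases in BOLA, 424 in JSP.1 and 421 in BOLA-NC1, and intron 6 139, 138 and 139 bases. Alignment of the sequences behind these lengths was not done here.

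**Figure D2:**
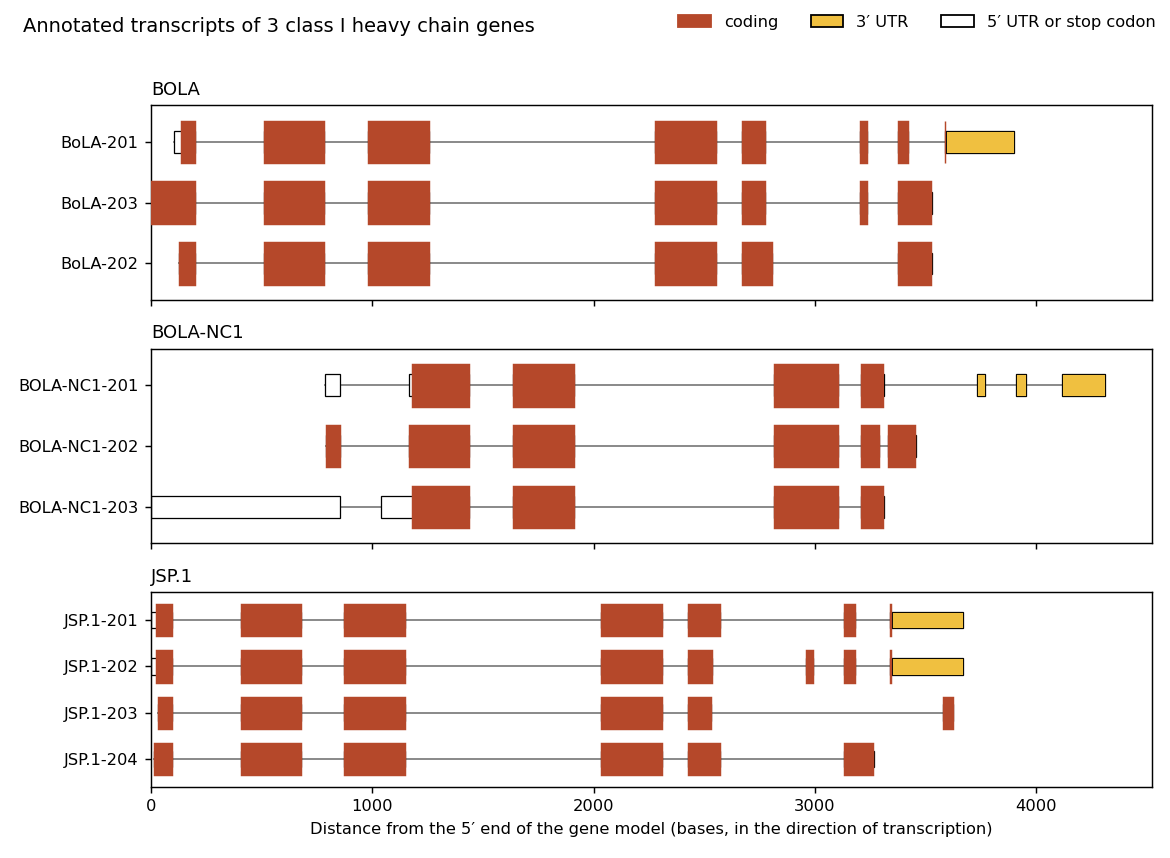
Transcripts of BOLA, BOLA-NC1 and JSP.1 drawn to scale from the 5′ end of each gene model, in bases along the direction of transcription; red boxes are coding segments, yellow boxes 3′ UTR, open boxes 5′ UTR or stop codon, and lines introns. Coding segments 2 to 4 of BOLA and JSP.1 line up, and 1 transcript each of BOLA and BOLA-NC1 and 2 of JSP.1 carry a 3′ UTR.

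The run of heavy chain lengths was rare in the annotation. Taking any 3 consecutive internal coding segments of a heavy chain transcript, 5 of 21861 protein-coding genes held such a run with equal lengths (0.0229%), and 3 of these were the heavy chains themselves. The other two, ENSBTAG00000012208 (27871206 to 27875056) and ENSBTAG00000007075 (27943564 to 28059869), carried no symbol and lay on the plus strand of chromosome 23, 673724 and 488911 bases from the nearest heavy chain. Each held the 270, 276 and 276 run of BOLA and JSP.1. No gene outside BOLA-NC1 held 3 consecutive segments equal to its own.

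When each length could differ by up to 3 bases, 23 genes qualified (0.105%), among them a gene spelled BoLA in mixed case (ENSBTAG00000005182, chromosome 23, 27829737 to 27836725, plus strand). It is not one of the 7 members, because the symbol differs in case. A transcript of this gene had segments of 76, 270, 273, 276, 111, 33, 48 and 2 bases, and another of 76, 270, 273, 276, 144, 48 and 2 bases, with 3′ UTRs of 310 and 294 bases. It lay 712055 bases from BOLA-NC1, on the opposite strand from the members.

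The transcripts of 1 heavy chain gene differed mostly at their ends. BOLA had 3 transcripts, with coding lengths of 1074 bases in BoLA-201, 1185 in BoLA-202 and 1311 in BoLA-203. BoLA-203 began with a coding segment of 199 bases where BoLA-201 had 64, and both BoLA-202 and BoLA-203 closed with a segment of 152 bases that ran into intron 7 of BoLA-201. JSP.1 had 4 transcripts, with coding lengths of 1029 bases in JSP.1-203, 1086 in both JSP.1-201 and JSP.1-202, and 1176 in JSP.1-204, for which no start codon was annotated. JSP.1-201 differed from JSP.1-202 in that a single segment of 141 bases stood in the place of segments of 108 and 33 bases. JSP.1-201 extended the 108-base segment into the next intron and left out the 33-base one. The coding length was thus the same, but not the coding bases. In BoLA-202, likewise, a segment of 138 bases stood in the place of 105 and 33 bases in BoLA-201.

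The annotated start and stop of coding in BOLA-NC1 differed between transcripts. In BOLA-NC1-202 coding began in the first exon, whereas in BOLA-NC1-201 and BOLA-NC1-203 it began in exon 2, with a first segment of 259 bases, and covered 924 bases in all. BOLA-NC1-201 had 8 exons, of 71, 270, 276, 288, 105, 33, 48 and 193 bases, and its stop codon lay in exon 5. Its exons of 33 and 48 bases, which have the lengths of coding exons in BOLA and JSP.1, were therefore 3′ UTR. BOLA-NC1-202 held an intron of 42 bases; 5.58% of protein-coding genes had an intron under 50 bases.

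A 3′ UTR, the part of the messenger after the stop codon, was annotated in at least 1 transcript for 6 of the 7 members, against 65.5% of all protein-coding genes and 79.8% of those with a symbol. Reads of 3′ libraries fall near the end of the messenger, where the 3′ UTR lies. Read per transcript, 7 of the 18 transcripts of the members had one (38.9%), against 57.0% of 37519 protein-coding transcripts. Transcripts of 1 gene share exons, and NLRC5 alone gave 4 of the 11 transcripts without a 3′ UTR. Read in stricter ways, 2 of the 7 had a 3′ UTR in every transcript, against 48.8% of genes, and 2 had one in the transcript of longest coding length, against 59.2%. In JSP.1 the transcript of longest coding length was JSP.1-204, which has no annotated start codon. A 3′ UTR of at least 50 bases was found in 6, against 63.4%, and one of at least 200 bases in 5, against 53.5%. B2M and PSMB9, with 1 transcript each, were the 2 that had one in every transcript.

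All 11 transcripts without a 3′ UTR ended at the last base of their stop codon, as did 98.6% of such transcripts in the whole annotation. Among the heavy chains, 4 of 10 transcripts had a 3′ UTR, and no gene had one in every transcript. In BOLA it was 307 bases in BoLA-201, as an unbroken stretch at 28720501 to 28720807, and 0 in the other two. In JSP.1 it was 321 bases in JSP.1-201 and JSP.1-202, at 28663713 to 28664033, and 0 in JSP.1-203 and JSP.1-204. In BOLA-NC1 it was 275 bases in BOLA-NC1-201 and 0 in the other two. The 3 lengths ran from 275 to 321 bases, and each lay below the median of 626 bases over genes with a 3′ UTR. Of genes with a 3′ UTR, 28.1% had a shorter one than BOLA, 25.5% a shorter one than BOLA-NC1 and 29.2% a shorter one than JSP.1.

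The 3′ UTR of BOLA-NC1 was broken into 4 segments, of 1, 33, 48 and 193 bases. B2M was the other member with a broken one, and 6.07% of transcripts with a 3′ UTR had more than 1 segment. In B2M-201, 14 bases followed the stop codon, then came an intron of 1005 bases, and 986 bases lay in the last exon, which is wholly non-coding.

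Heavy chain transcripts without a 3′ UTR did not all stop short at the same feature. BoLA-202 and BoLA-203 ended at 28720871, inside intron 7 of BoLA-201 and 370 bases before its end. JSP.1-204 ended inside intron 6 of JSP.1-201, 402 bases before the end of that transcript. BOLA-NC1-202 ended inside intron 5 of BOLA-NC1-201, 853 bases before its end, and BOLA-NC1-203 ended at the stop codon that both transcripts share, 997 bases before it. JSP.1-203 alone ended in the 3′ UTR of a sister transcript. Its last exon of 46 bases lay within the 3′ UTR of JSP.1-201 and stopped 42 bases before the end of that transcript. Of the 6 heavy chain transcripts without a 3′ UTR, 4 thus closed in what a sister transcript treats as intron.

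In all 3 heavy chains, and in TAP1, the longest coding sequence belonged to a transcript without a 3′ UTR. That is 4 of the 4 members that had more than 1 transcript and a 3′ UTR. The background was 20.2% of 6768 such genes. Among the other genes of the pathway it was 4 of 20. In JSP.1 the call rests on JSP.1-204, of 1176 bases, for which no start codon was annotated. JSP.1-201 and JSP.1-202, at 1086 bases the longest of this gene with a start codon, both had a 3′ UTR of 321 bases. Of the 5 members with more than 1 transcript, 4 had transcripts of both kinds, against 44.4% of genes with more than 1 transcript. These counts are a description, with no test.

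**Figure D3:**
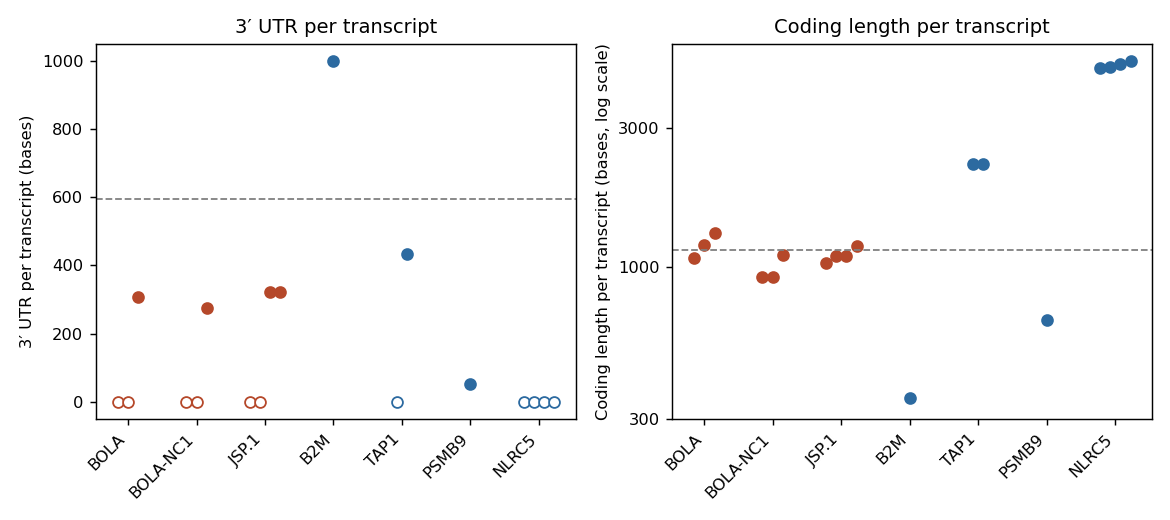
Length of the 3′ UTR (left, bases) and of the coding sequence (right, bases, log scale) for each of the 18 transcripts of the 7 genes, with heavy chains in red, loading machinery in blue and open circles at 0 bases; dashed lines are the median of transcripts with a 3′ UTR (596 bases) and of the longest coding length per gene (1146 bases). Heavy chain 3′ UTRs lie between 275 and 321 bases or at 0, and B2M stands at 1000.

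The loading machinery showed a wider range in each measure. TAP1 had a 3′ UTR of 432 bases in TAP1-201 and of 0 in TAP1-202, which ended at the same stop codon. PSMB9 had 1 transcript with 52 bases, and 3.38% of genes with a 3′ UTR had a shorter one. All 4 transcripts of NLRC5 started at 25044850 and ended at 25102326 with the stop codon, and none had a 3′ UTR or a 5′ UTR. B2M, with 1000 bases in its only transcript, had the longest of the 7. The median of the longest 3′ UTR was 307 bases over the 3 heavy chains and 432 bases over the 3 loading genes that had one, a difference of −125 bases. With NLRC5 counted at 0 bases the difference turned to 65 bases, so the order of the groups rested on that choice.

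Coding lengths of the heavy chains lay close together, whereas the loading genes held both extremes. The longest coding sequence was 1101 bases in BOLA-NC1, 1176 in JSP.1 and 1311 in BOLA, without the stop codon, near the median of 1146 bases over all protein-coding genes. B2M had 354 bases, or 118 codons, and 6.92% of genes had a shorter coding sequence. PSMB9 had 657 bases, TAP1 2262 and NLRC5 5112, and 97.1% of genes had a shorter one than NLRC5. The medians were 1176 bases for the heavy chains and 1459.5 for the loading genes, a difference of −283.5 bases. The heavy chain median is the length of JSP.1-204, for which no start codon was annotated. The other transcripts of JSP.1 had at most 1086 coding bases. The median of the loading genes falls in the gap between PSMB9 and TAP1 and is the length of none of them, and no test was made on 3 against 4 genes.

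Within a gene, coding length varied by 237 bases between transcripts of BOLA, 177 in BOLA-NC1, 147 in JSP.1, 12 in TAP1 and 270 in NLRC5, while B2M and PSMB9 had 1 transcript each. The number of coding segments in the longest coding transcript was 7 in BOLA, 6 in BOLA-NC1 and JSP.1, 3 in B2M, 6 in PSMB9, 10 in TAP1 and 37 in NLRC5. The median gene had 6, and 98.3% of genes had fewer segments than NLRC5.

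B2M coded its protein in segments of 67, 276 and 11 bases, and the middle one had the length of the alpha 3 segment of BOLA and JSP.1. Both are immunoglobulin-like domains. An internal coding segment of 276 bases was found in 0.476% of protein-coding genes, and a single equal length is no measure of kinship.

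TAP1 followed the plan of its partner. TAP2, which pairs with TAP1 to form the transporter, and ABCB9, a lysosomal peptide transporter of the same family on chromosome 17, both shared with TAP1-201 a run of 7 consecutive internal segments, of 115, 131, 206, 198, 129, 189 and 174 bases. No other gene shared a run that long with TAP1. The first segments differed, with 598 bases in TAP1, 490 in TAP2 and 613 in ABCB9, and so did the last, with 210, 228 and 258 bases. TAP1-202 did not keep the whole run: a segment of 121 bases stood in the place of 115, and one of 343 bases replaced those of 131 and 206. TAP1-202 had the longer coding sequence, by 12 bases, and no UTR at either end.

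PSMB9 was closest in plan to PSMB6, the subunit that it replaces in the immunoproteasome. PSMB6, on chromosome 19, was the only gene to share a run of 3 internal segments with PSMB9, of 68, 132 and 130 bases. The next segments measured 142 bases in PSMB9 and 145 in PSMB6. PSMB8, beside TAP1 on chromosome 23, had segments of 147, 148, 112, 130, 205 and 86 bases and shared with PSMB9 a length of 130 bases at the same place and no run. ABCB9, PSMB6 and NLRC3 were named after their values were seen, as the genes with the longest run in common with a member.

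NLRC5 was the gene with the most coding segments of 84 bases in the annotation, with 22 in NLRC5-202, 21 in NLRC5-201, 15 in NLRC5-204 and 14 in NLRC5-203. Segment 3, of 1675 bases, was its largest and stood in all 4 transcripts. NLRC3, another member of the NLR family on chromosome 25, came next with 12 segments of 84 bases, and NOD1 and NOD2 had 7 each. In this family the leucine-rich repeats are known to be coded by such short exons. NLRC5 and NLRC3 had in common a run of 8 consecutive segments of that length.

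**Figure D4:**
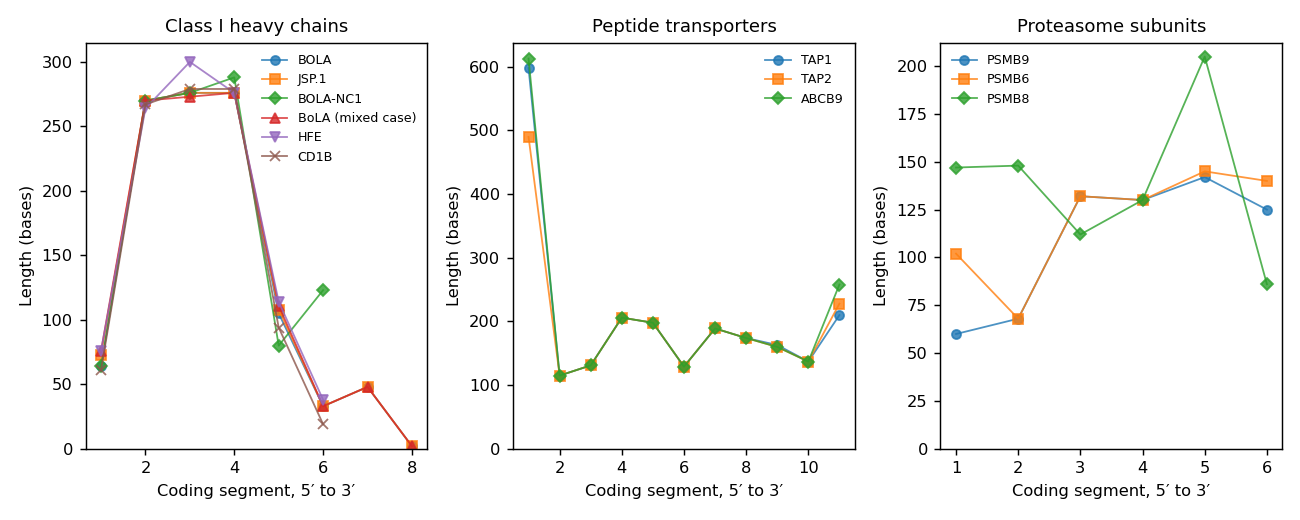
Length in bases of each coding segment in order from the 5′ end, for class I heavy chains with class I-like genes (left), TAP1 with TAP2 and ABCB9 (middle) and PSMB9 with PSMB6 and PSMB8 (right), 1 transcript per gene. Segments 2 to 8 of TAP1, TAP2 and ABCB9 coincide, as do segments 2 to 4 of BOLA and JSP.1 and of PSMB9 and PSMB6.

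Of 36 further symbols of class I antigen presentation, 35 were matched, to 36 genes, and 32 of these had a 3′ UTR (88.9%), above the 65.5% of all protein-coding genes and the 79.8% of named ones. Their median was 624.5 bases, beside 626 bases over all genes with a 3′ UTR. MICB was not matched. NFYB, a subunit of a promoter-binding complex, was matched to 2 genes, and that on chromosome 9 (84785703 to 84786332), with 1 coding segment, had no 3′ UTR.

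All 5 further proteasome genes had a 3′ UTR, at a median length of 142 bases. PSMB8 and PSMB10, catalytic subunits of the immunoproteasome like PSMB9, had 227 and 50 bases, and PSME2, an activator subunit, had 43 bases in 1 of 3 transcripts. PSME3, an activator of the nuclear proteasome, had 2397 bases in both transcripts, the longest of the list. PSME1 shared 38 exon bases with DCAF11 and PSME3 shared 138 with AOC2, both on the same strand. PSME2 shared 10 bases with RNF31 on the opposite strand.

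All 8 genes of peptide transport and loading had a 3′ UTR, from 329 bases in PDIA3, an oxidoreductase of the loading complex, to 1811 bases in CANX, a chaperone of new heavy chains. TAP2 had 549 bases, and 5 of its 6 transcripts had a 3′ UTR, against 1 of 2 in TAP1. TAPBP, which bridges TAP and the heavy chain, lay on chromosome 23 from 7473580 to 7484202 and had 968 bases. TAPBPL shared 129 exon bases with VAMP1 and PDIA3 shared 176 with CATSPER2, each partner on the opposite strand. Among the trimming peptidases ERAP1 had 538 bases and ERAP2 1013 bases, and LNPEP had none in any of 4 transcripts.

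Among the regulators, RFXAP, a subunit of the RFX complex that binds class I and class II promoters, had no 3′ UTR in either transcript, and neither had the single-segment NFYB gene. CIITA, the class II counterpart of NLRC5, had 31 bases in each of 5 transcripts. NFYA, on chromosome 23 from 14998801 to 15022870, had up to 542 bases, and IRF1 had 1792 bases. RFXANK shared 236 exon bases with NR2C2AP on the opposite strand. The co-receptor chains CD8A and CD8B had 1264 and 712 bases.

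All 6 matched class I-like genes had a 3′ UTR. MR1, which presents metabolites to MAIT cells, had the shortest of the list, with 18 bases in its longest, and had one in 3 of 8 transcripts. CD1D, which presents lipids, had 2252 bases, and HFE, a regulator of iron uptake on chromosome 23 from 31855234 to 31864562, had 1930 bases. AZGP1 had 274 bases, PROCR 545 and FCGRT 645. The heavy chains, at 275 to 321 bases, lay within the range of these genes and nearest to AZGP1.

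**Figure D5:**
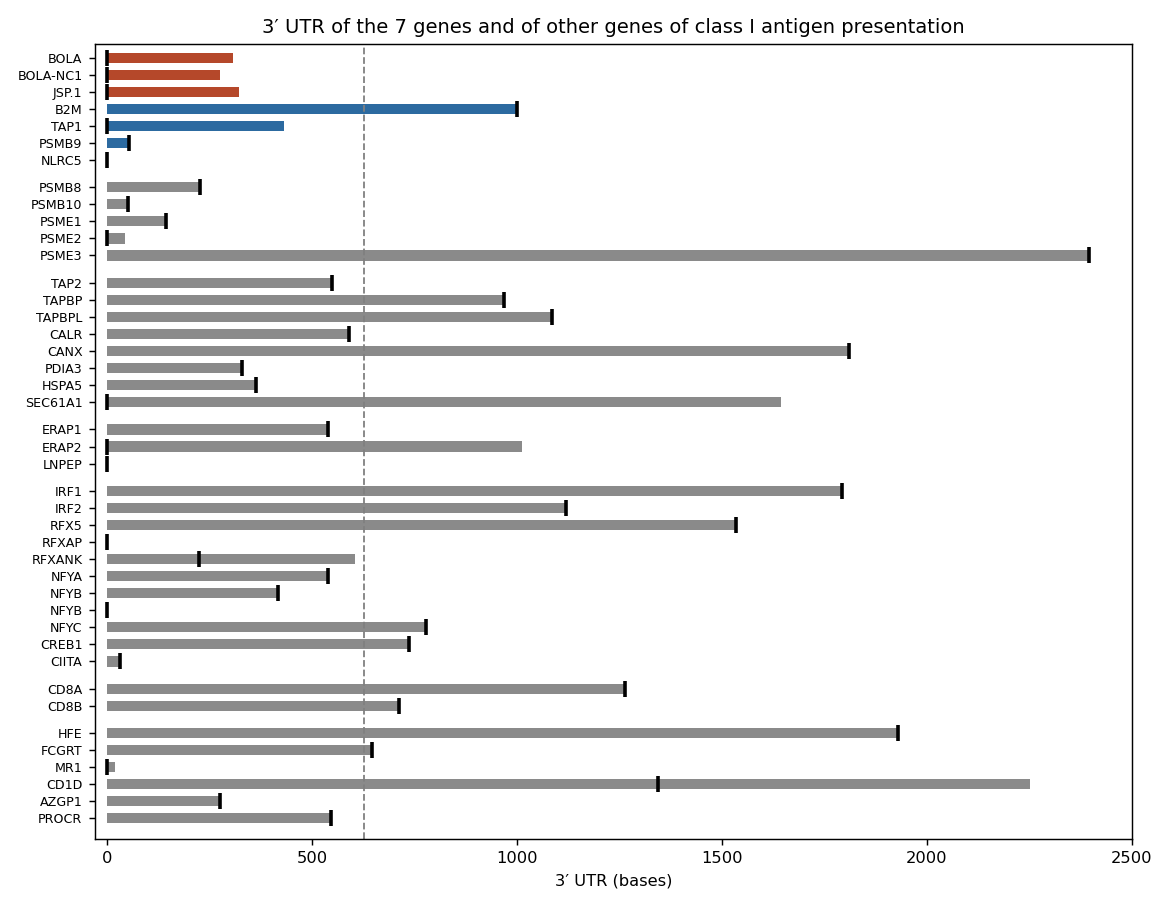
Longest 3′ UTR over the transcripts of each gene (bars, bases) and 3′ UTR of the transcript with the longest coding sequence (black ticks), for heavy chains (red), loading machinery (blue) and 35 of the 36 other matched genes of class I antigen presentation (grey, in blocks by role; the gene not reported here is not drawn); the dashed line is the median of 626 bases over genes with one. The ticks of BOLA, BOLA-NC1, JSP.1 and TAP1 stand at 0, away from the ends of their bars.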

How the data were processed

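The labels name 4 single-cell 3′ libraries and, in the submitters' processing notes, STAR, Cell Ranger 3 and Seurat without the step each was used for. The deposited file used was a gene annotation of cattle; per the file headers it describes ARS-UCD1.2, and the positions it lists are in bases, counted from 1. For the use of this annotation on reindeer reads, the authors' steps are not given in the sources used here. No counts were analysed, so no depth or test between samples is given. For each transcript the coding length (without the stop codon), the ordered coding segments, introns and the summed 3′ UTR segments were taken. A 3′ UTR needed at least 1 base. Percentages of genes with a shorter or lower value are over protein-coding genes, and for the 3′ UTR over those of them that have one. Runs were 3 or more consecutive coding segments of equal length, without the first and last of a transcript. Gene models are not replicates, so no test was made.

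The members, the pathway list and the alternatives were chosen with earlier results of these data known. Named were all members with their nearest genes, genes with a heavy chain run, and pathway genes without a 3′ UTR, with the longest or shortest, with shared exon bases, or on chromosome 23; other genes were named after their values were seen, as examples of their role, and a gene that the rule takes is not reported here. The reader was tested on simulated data. Python 3.11.15, NumPy 2.4.6, SciPy 1.17.1 and matplotlib 3.10.9 were used.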

Additional observations from a re-analysis of the deposited data

How the results depend on the processing

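The count of members with a 3′ UTR fell from 6 to 2 when the longest coding transcript alone was read. In JSP.1 that transcript has no annotated start codon. The count was also 2 when every transcript had to have one, 6 with at least 50 bases and 5 with at least 200. The share of member transcripts with a 3′ UTR was 38.9% also with at least 50 bases or with only transcripts that have a stop codon. Neither alternative could change it, because the shortest 3′ UTR was 52 bases and every member transcript had a stop codon. The difference in median coding length (−283.5 bases) was −424.5 with the shortest and −370.5 with the median coding sequence per gene. It was −321.0 with the mixed-case BoLA as another heavy chain, an alternative chosen after seeing the data. Restriction to TAP1 and PSMB9 could not move it, because the median of the loading genes already lies midway between them. Counting the stop codon could not move it either, because that adds the same length to every gene. The difference in median 3′ UTR (−125 bases) turned to 65 with genes lacking one set to 0, was −26 in the longest coding transcript with those at 0, and −123.5 with BoLA added. The difference in median coding segments (−2) was −0.5 with the largest number per gene. Genes with a heavy chain run rose from 5 to 23 with a tolerance of 3 bases and were 4 in the longest coding transcript. Pathway genes with a 3′ UTR went from 32 to 28 in the longest coding transcript and to 27 with at least 200 bases. Over all protein-coding genes the share went from 65.5% to 59.2% and 53.5% under the same settings. The background of 65.5% was 79.8% for named genes. No paired analysis was possible because no value belongs to a sample.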

Other observations

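Class I-like genes outside the 7 members differed in how near they came to the heavy chain plan. CD1B, which presents lipids, had coding segments of 61, 267, 279, 279, 94 and 19 bases, and CD1A had 82, 267, 279, 279, 91 and 40 bases, each 3 bases from BOLA in the segments at the places of the alpha domains. A transcript of MR1 had 261, 276 and 276 bases there, and HFE had 264, 300 and 276 bases. A transcript of FCGRT, an Fc receptor, had 249, 276 and 270 bases there. AZGP1 had 261, 276 and 293 bases, the last of these closing its coding sequence. The transcripts of MR1 and FCGRT given here were not those with the longest coding sequence. CD1D, in its longest coding transcript, began with a segment of 568 bases followed by 279 and 279 bases. PROCR, a protein C receptor, had 76, 252, 279 and 116 bases, which were all its segments. Of the 23 genes within 3 bases of a heavy chain run, 4 carried a CD1 symbol and 7 lay on chromosome 23. The 7 on chromosome 23 were the 3 heavy chains, mixed-case BoLA, MAPK13 and the 2 genes without a symbol that held the exact run. MAPK13, 18481691 bases from the nearest heavy chain, had segments of 109, 30 and 48 bases beside 108, 33 and 48 in JSP.1-202. Others were of unrelated kinds, among them TNC and COL12A1 of the extracellular matrix.

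The 2 genes without a symbol that held the exact run differed in their ends. ENSBTAG00000012208 had 3 transcripts and no 3′ UTR, and ENSBTAG00000007075 had 4 transcripts, with 1629 bases in its longest 3′ UTR. The transcript of ENSBTAG00000007075 with the longest coding sequence did not hold the run.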
